A study of Nasonia vitripennis x Nasonia giraulti with 2 samples.

Results

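The regions described here are stretches of methylated CpGs in F1 hybrid wasps of Nasonia vitripennis (Nv) and Nasonia giraulti (Ng). A CpG entered when at least 20% of its reads, pooled over the 2 libraries and over both alleles, were unconverted by bisulfite and therefore counted as methylated. Such CpGs were joined when neighbours on a scaffold lay at most 1000 bp apart, and runs of at least 4 were kept. Of 5531492 CpGs listed in both libraries, 53743 reached this level. They formed 4531 stretches with 50685 CpGs on 315 scaffolds, and the other 3058 lay in shorter runs.

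Whole-genome bisulfite sequencing was done on whole adult females taken 24 h after eclosion, in pools of 50. F1VG females had an Nv mother of strain AsymCX and an Ng father of strain R16A, and F1GV females had an Ng mother of strain R16A and an Nv father of strain AsymCX. The Nv allele (V) is therefore maternal in F1VG and paternal in F1GV, and the Ng allele (G) is the reverse, in daughters that carry 1 genome of each species in both crosses. Each cross had 1 library, with 286833473 counts over 5804802 CpGs in F1VG and 371795018 counts over 6527248 CpGs in F1GV.

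In insects, methylation sits mostly on CpGs within the bodies of a subset of genes, often genes used in many tissues, while the rest of the genome is close to unmethylated. In vertebrates, DNA methyltransferase 1 copies the marks after replication and Dnmt3 enzymes set new ones, and the roles of the insect enzymes are inferred from there. In haplodiploid wasps, females come from fertilised eggs and carry a maternal and a paternal chromosome set, so that a reciprocal cross exchanges which parent supplied each species' allele. The comparison asks whether the total methylation of a stretch, summed over both alleles, was the same in the crosses.

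A stretch held a median of 10 CpGs (quartiles 6 and 14, range 4 to 78) and spanned a median of 1116 bp (quartiles 696 and 1677, range 18 to 9014). Within the span, a median of 90.9% of all listed CpGs were members, so that most stretches had few unmethylated CpGs between their methylated ones. Stretches held 0.916% of the listed CpGs but 28.6% of the methylated counts in each library. Their CpGs were methylated at 67.8% in F1VG and at 67.0% in F1GV, against 1.69% and 1.75% over all CpGs outside them. The median depth of a CpG in a stretch was 51.5 reads in F1VG and 66 in F1GV, so levels in F1GV carry the smaller counting error.

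Total methylation was close to equal in the crosses for most stretches. F1VG had a median level of 69.4% and F1GV of 68.1%, and the mean of the summed levels was 67.1% ± 13.9 and 66.3% ± 12.8 (SD over stretches, not over replicates). F1VG minus F1GV, from the summed counts of each stretch, averaged 0.829 percentage points with a median of 1.06. The median absolute difference was 3.68 points, 64.5% of stretches differed by less than 5 points and 89.3% by less than 10. Across the 4531 stretches the levels of the libraries had a Pearson correlation of 0.883. The stretches were chosen on the pooled level, which the points share.

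**Figure D1:**
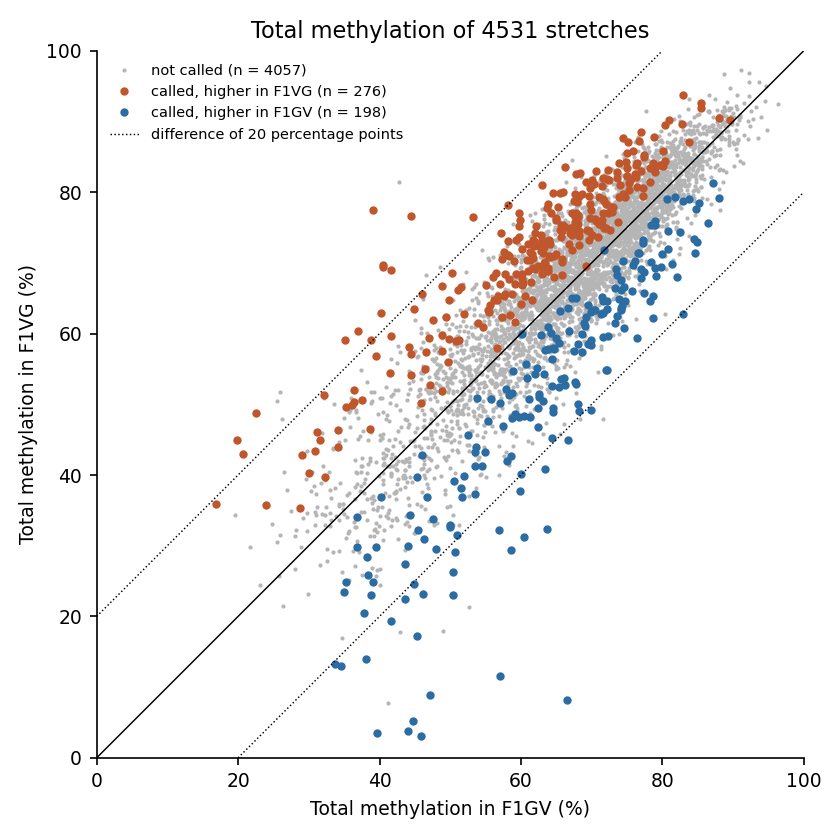
Total methylation (%) of each of the 4531 stretches in F1GV (horizontal) and F1VG (vertical). Grey points were not called, orange points (276) were called higher in F1VG, blue points (198) were called higher in F1GV, and dotted lines mark a difference of 20 percentage points. Most points lie along the diagonal, and the group at the bottom, below 10% in F1VG, has no counterpart at the left edge.

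Each stretch was tested with a two-sided Fisher's exact test of methylated against unmethylated reads in the 2 libraries. Only CpGs more than a read length apart were summed for the test, so that no read was counted at more than 1 CpG. The Benjamini-Hochberg correction was taken over all 4531 stretches. With 1 library per cross there is no replicate error, and the test compares the reads of 2 libraries, not the crosses. Whether PCR copies of reads were removed cannot be seen from the counts, and p-values and intervals cover counting error only. They belong to the difference over the tested CpGs, which can be smaller or larger than that over all CpGs of the stretch.

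The test called 474 stretches (10.5% of 4531) at an adjusted p under 0.05, of which 276 (6.09%) were higher in F1VG and 198 (4.37%) in F1GV. At an unadjusted p under 0.05, 24.5% passed. The called differences were small for the most part. They were under 10 points in 259 of the 474 stretches (54.6%), between 10 and 20 points in 175 and at least 20 points in 40 (0.883% of all stretches). In 3 called stretches the CpGs used in the test and all CpGs together had opposite signs. The choice of CpGs also mattered. When the spacing was started at the last CpG of a stretch, 473 were called, and 227 were called in the same direction from both ends (this count was added after seeing the data). Summing all CpGs, which counts a read at every CpG it covers, called 995.

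The split between the directions followed the rule that chose the CpGs. When CpGs were chosen at 20% in F1VG alone, 429 of 500 called stretches were higher in F1VG, and the mean difference was 2.60 points. When they were chosen in F1GV alone, 201 of 537 were higher in F1VG, and the mean was -0.45 points. The unweighted mean of the levels of the libraries gave 300 of 487 and a mean of 1.04 points. No direction for the whole set of stretches holds under every one of these rules. Choosing CpGs by the level in 1 library favours a higher level in that library, so those 2 rules cannot decide a direction. With CpGs chosen on both libraries the mean was above 0, also at a pooled level of 10% (0.590 points) and of 50% (1.53 points).

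The size of the difference varied with the level of the stretch. Among the 27 stretches whose level, averaged over the libraries, was under 30%, 12 were called (44.4%) and 8 of them by at least 20 points, and the mean difference was -10.5 points. Between 30% and 40%, 36 of 181 were called (19.9%), with a mean of -2.82 points. The share fell to 9.58% of 1440 stretches between 70% and 80%, to 6.50% of 569 between 80% and 90%, and 0 of the 41 stretches at 90% or more were called. The mean difference was 1.66 points between 80% and 90%. Of the 40 stretches called with at least 20 points, 8 lay under 30%, 13 between 30% and 40%, 8 between 40% and 50%, 8 between 50% and 60%, and 1 above 70%. Large differences were thus found at low and intermediate levels, and hardly at high ones. This is in part set by the classes, since an average of 90% or more leaves no room for a difference above 20 points.

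Longer stretches were called more often but had smaller absolute differences. Of stretches with 4 CpGs, 37 of 399 were called (9.27%) and 17 by at least 20 points. With 32 or more CpGs, 12 of 60 were called (20.0%) and 0 by at least 20 points. The median absolute difference fell from 4.796 points to 3.15, and the median width of the 95% interval of the difference from 21.4 points to 8.86. Counting error adds more to absolute differences where intervals are wide, and the fall was not separated from it. Across stretches, the log2 ratio of the depths in the libraries and the difference had a Pearson correlation of 0.021. Depth limits the short stretches, since a difference of 10 points lies within the interval of a typical stretch of 4 CpGs. Just outside the limit of 4, the 402 runs of 3 CpGs had median levels of 63.1% and 62.3% and a median absolute difference of 6.25 points, and the 399 runs of 4 had 65.7%, 64.5% and 4.796. At the level limit, 658 CpGs lay between 20% and 21% and 607 between 19% and 20%.

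**Figure D2:**
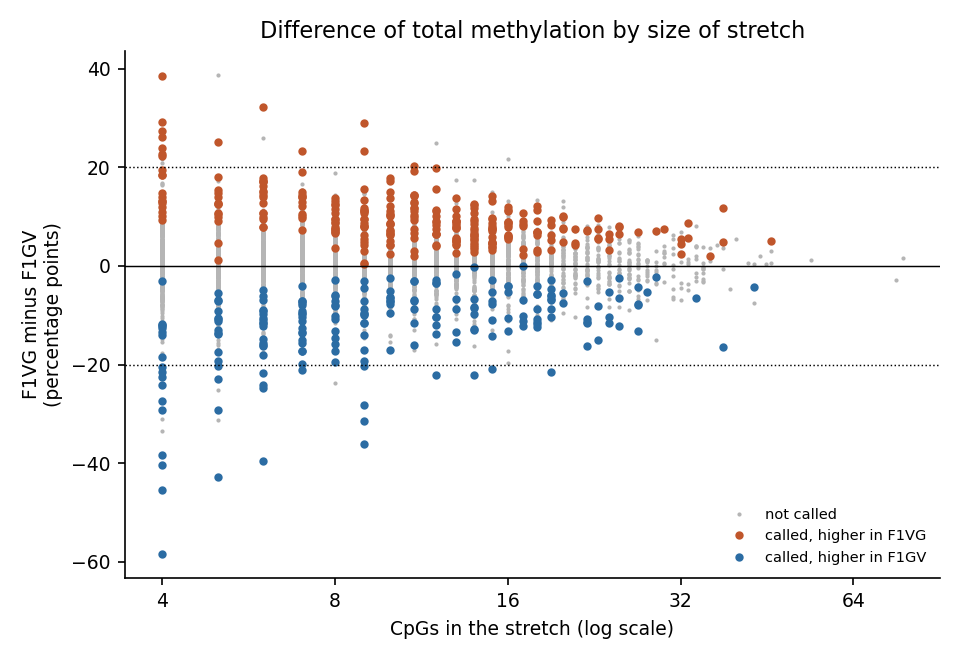
Difference of total methylation, F1VG minus F1GV in percentage points (vertical), by the number of CpGs in the stretch on a log scale (horizontal), 1 point a stretch. Dotted lines mark 20 points in each direction. The 17 called stretches of 4 CpGs beyond the lines become 0 at 32 or more CpGs.

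The 40 stretches that were called with at least 20 points were short, with a median of 5 CpGs and 634 bp. In 27 of them every CpG lay in the direction of the sum, against 56 of all 474 called stretches and 192 of all 4531. The choice of large sums and the few CpGs favour this, since the median was 11 CpGs in called stretches and 10 in all. The 13 that were higher in F1VG lay on 11 scaffolds, with levels of 42.9% to 77.5% in F1VG and 19.8% to 53.3% in F1GV. The 27 that were higher in F1GV lay on 21 scaffolds, with 3.02% to 62.7% in F1VG and 33.8% to 82.9% in F1GV. Differences ran from 20.3 to 38.4 points in the first set and from -20.2 to -58.4 in the second. Another 12 stretches differed by at least 20 points over all their CpGs and were not called, 6 in each direction, and the test rested on a median of 2 CpGs there.

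The lowest levels were in F1VG. Of all stretches, 7 were below 10% in F1VG and at least 30% in F1GV, and 0 were below 10% in F1GV and at least 30% in F1VG. These limits were chosen after seeing the data. The lowest level of any stretch was 3.02% in F1VG and 16.9% in F1GV, and 16 stretches were under 20% in F1VG against 3 in F1GV. This count depends on how CpGs enter, since a CpG near 0 in 1 library must be well methylated in the other to reach the pooled level. Pooled reads also give F1GV the larger weight. By the unweighted mean of the levels, which weights the libraries equally, the counts were 6 and 0, and on V and G reads alone 7 and 0. With CpGs chosen at a pooled level of 10% the counts were 13 and 3, with CpGs chosen in F1GV alone 15 and 0, and with CpGs chosen in F1VG alone 0 and 2.

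The largest difference of any stretch was on SCAFFOLD25 from 1094259 to 1094334, 4 CpGs within 75 bp. There, 18 of 221 counts were methylated in F1VG (8.14%) and 149 of 224 in F1GV (66.5%), a difference of -58.4 points. All 4 CpGs were higher in F1GV, from 56.9% to 76.4% against 2.08% to 15.2%. Because these CpGs lie within a read length, the Fisher's exact test used 1 of them, with 2 of 66 against 42 of 55 reads (95% Wilson intervals 0.835% to 10.4% and 63.7% to 85.6%, Benjamini-Hochberg adjusted p = 3.4e-15). On the V allele, 15 of 137 counts were methylated in F1VG and 145 of 151 in F1GV, which is 10.9% against 96.0%. The G allele was at 3.70% and 2.82%, close to unmethylated in both crosses. The whole difference of the stretch was thus on the V allele, which was methylated in the library where it came from the father.

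On SCAFFOLD1 from 7964320 to 7964527, 5 CpGs had 10 of 331 methylated counts in F1VG (3.02%) and 169 of 369 in F1GV (45.8%). No CpG was above 6.35% in F1VG, and none was below 39.0% in F1GV. The V allele was at 4.93% in F1VG and 84.1% in F1GV, and the G allele was at 0 of 148 counts and at 12.4%. This stretch had the smallest adjusted p of all (1.1e-17 by the Fisher's exact test, 95% interval of the difference from -51.3 to -35.0 points). The 32 CpGs listed within 1000 bp on either side had 2.32% and 3.01%, and the rule that ends a stretch keeps each of them under a pooled level of 20%.

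SCAFFOLD983 from 10178 to 10801 held the most CpGs of these stretches, 9 within 623 bp, with 13 of 367 methylated counts in F1VG (3.54%) and 219 of 552 in F1GV (39.7%). Every CpG was higher in F1GV, and the smallest of these differences was -24.4 points. The V allele was at 5% and 76.2%. On the G allele, 4 of 168 counts were methylated in F1VG and 5 of 255 in F1GV. The Fisher's exact test over 5 spaced CpGs gave an adjusted p of 5.0e-14 (Benjamini-Hochberg).

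The same form was found on SCAFFOLD28 from 1226788 to 1226887 (4 CpGs, 3.73% in F1VG and 44.0% in F1GV), SCAFFOLD7 from 2632809 to 2633045 (6 CpGs, 5.22% and 44.7%) and SCAFFOLD39 from 181342 to 181986 (4 CpGs, 8.92% and 47.2%). Their V alleles were at 3.45%, 3.95% and 11.1% in F1VG and at 63.9%, 82.0% and 79.1% in F1GV. Their G alleles lay between 2.04% and 7.50% in F1VG and between 3.38% and 14.9% in F1GV. Adjusted p-values of the Fisher's exact test were 1.9e-06, 8.5e-11 and 7.7e-08. In each of the 3 stretches, no CpG of F1VG reached the level of the lowest CpG in F1GV.

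The seventh was a second stretch on SCAFFOLD28, from 253389 to 253473, with 17 of 218 methylated counts in F1VG (7.80%) and 120 of 291 in F1GV (41.2%). It was not called, with an adjusted p of 0.087 by the Fisher's exact test on its first CpG, and passed from its last CpG with 7.6e-05. On SCAFFOLD164 from 136209 to 136410 (4 CpGs, 11.6% and 57.1%, adjusted p = 0.00018, Fisher's exact test), the low level in F1VG was confined to the first 3 CpGs, which lie within 24 bp. Over these, 2 of 135 counts were methylated in F1VG and 110 of 185 in F1GV, and the V allele was at 1.45% and 90.4%. The fourth CpG was at 41.3% and 50.7%. The test used 2 of the 4 CpGs, with a difference of -33.1 points.

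**Figure D3:**
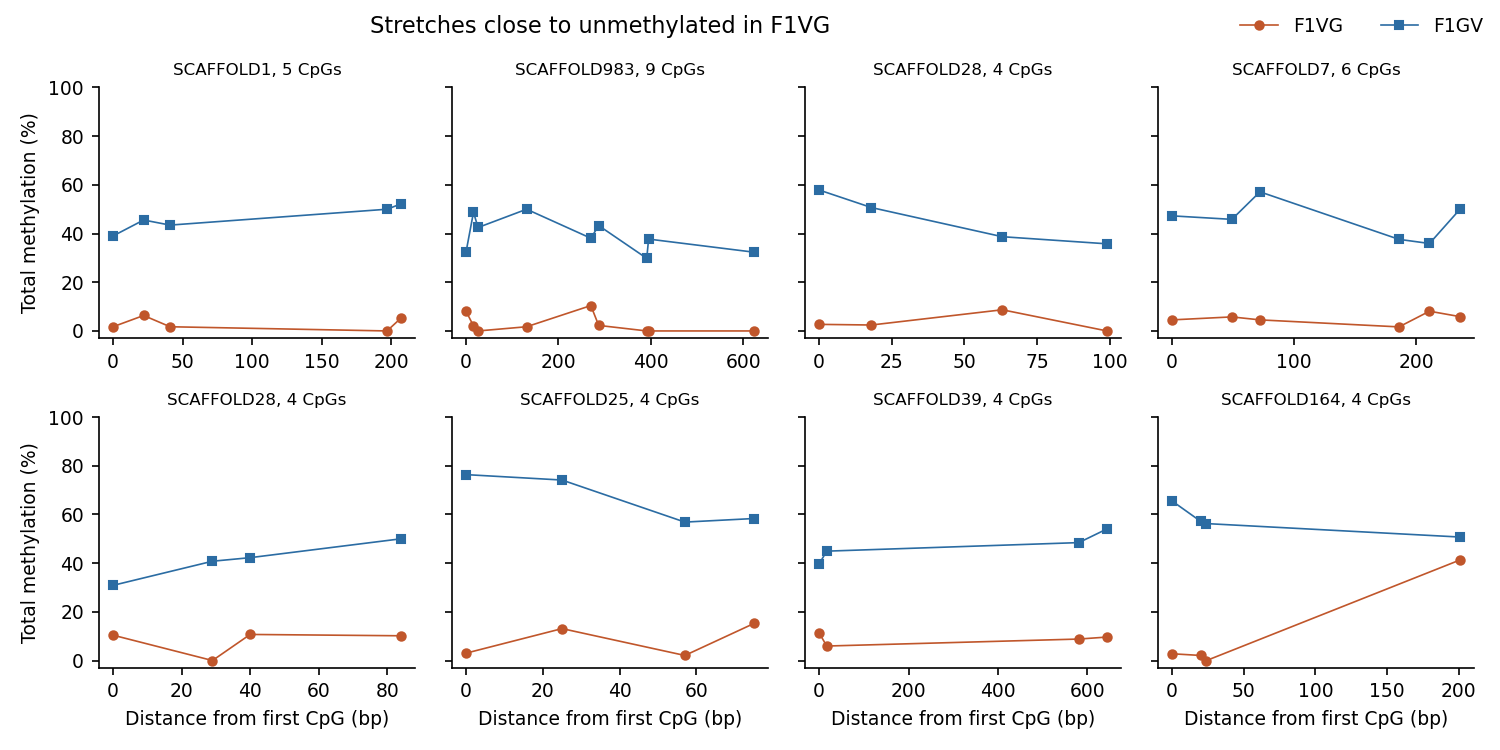
Total methylation (%) of each CpG against its distance in bp from the first CpG of the stretch, for the 7 stretches below 10% in F1VG and at least 30% in F1GV and for the stretch on SCAFFOLD164. Circles are F1VG and squares F1GV, 1 library each. Squares lie between 29.8% and 76.4% and circles at or below 15.2%, except for the last CpG on SCAFFOLD164 at 41.3%.

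Counted over all stretches, the V allele was under 15% in F1VG and at least 60% in F1GV in 9, which are the 8 stretches above and SCAFFOLD57 from 347143 to 347312 (4 CpGs, V allele at 10.3% and 67.9%, total at 13.01% and 34.6%). The reverse, under 15% in F1GV and at least 60% in F1VG, was found in 0 stretches for the V allele. For the G allele, 0 stretches passed these limits in either direction. The limits were chosen after seeing the data, and the counts were not tested. They hold for levels summed over whole stretches. Segments within stretches, described below, passed the limits on the V allele in both directions. It was at 89.2% in F1VG and 6.25% in F1GV over 3 CpGs on SCAFFOLD4, and at 78.6% and 5.81% over 4 CpGs on SCAFFOLD10. Over 12 CpGs on SCAFFOLD1 it was at 7.86% and 82.1%. The G allele was at 6.76% and 83.0% over 3 CpGs on SCAFFOLD44.

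Among called stretches with 10 or more CpGs, the largest differences toward F1GV were close to 20 points, and the CpGs within them did not move alike. SCAFFOLD1 from 5564692 to 5565761 had 19 CpGs, with 347 of 1191 methylated counts in F1VG (29.1%) and 676 of 1335 in F1GV (50.6%), a difference of -21.5 points (adjusted p = 0.0033, Fisher's exact test over 7 spaced CpGs). Its first 12 CpGs, over 412 bp, held the difference, with 6.90% in F1VG and 46.0% in F1GV. Their V allele was methylated in 22 of 280 counts and 303 of 369, which is 7.86% against 82.1%, and their G allele was at 3.26% and 3.21%. The next 4 CpGs were methylated in both crosses, at 80.4% and 87.2%, and the last 3 were at 28.2% and 25.4%, with the V allele at 4.76% and 0.935%. Here a segment with the V allele close to 0 in F1VG joined a methylated segment, and the stretch as a whole was not counted among the 7. The segments were chosen after seeing the data.

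SCAFFOLD44 from 690365 to 693271, with 15 CpGs over 2906 bp, was at 49.2% in F1VG and 69.97% in F1GV (-20.8 points, adjusted p = 0.00017 by the Fisher's exact test, but 0.39 with the spacing from the last CpG). Its first 6 CpGs were at 87.2% and 83.0%, methylated in both crosses. The next 3 CpGs, within 14 bp, were at 5.86% and 55.8%, with the G allele at 6.76% and 83.0% and the V allele at 4.73% and 17.9%. At the following 2 CpGs the total was 32.2% and 47.1%, and the G allele was at 88.5% and 81.8%. Over the last 4 CpGs the V allele was at 19.1% and 68.4% and the G allele at 83.3% and 77.6%, and at 1 of these, the third, the V allele was high in both crosses. A single stretch thus held CpGs that differed on the G allele and others that differed on the V allele.

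The other long stretches toward F1GV were on SCAFFOLD1 from 6436529 to 6437507 and SCAFFOLD31 from 614793 to 615353. The former had 14 CpGs at 37.7% and 59.9%, 13 of which were higher in F1GV, and both alleles were higher in F1GV (V 44.4% and 68.6%, G 37.4% and 52.5%). The latter had 12 CpGs at 19.4% and 41.6%, 11 of them higher in F1GV. Its V allele was at 32.5% and 71.3% and its G allele at 11.03% and 10.3%. Adjusted p-values of the Fisher's exact test were 1.8e-07 and 0.0024, and the second was 0.22 on V and G reads alone.

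Toward F1VG, the 13 called differences of at least 20 points had a median of 25.1 points, against -24.2 for the 27 toward F1GV. The largest of the 13 was on SCAFFOLD1 from 8774043 to 8775207, where 4 CpGs had 134 of 173 methylated counts in F1VG (77.5%) and 96 of 246 in F1GV (39.0%). The difference was 38.4 points (95% interval over 3 spaced CpGs 28.2 to 48.6, adjusted p = 2.1e-08, Fisher's exact test). Both alleles were higher in F1VG, the V allele at 81.1% against 45.9% and the G allele at 69.0% against 34.0%. The second CpG of the stretch was at 88.9% and 86.2%. A larger difference, 38.8 points, was not called. It was on SCAFFOLD69 from 458625 (5 CpGs within 60 bp, 81.5% and 42.7%), where the Fisher's exact test rested on 1 CpG (adjusted p = 0.30), and it was named after its values were seen.

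SCAFFOLD4 from 5127720 to 5128296 followed, with 6 CpGs at 76.6% in F1VG and 44.4% in F1GV, a difference of 32.1 points. A group of 3 neighbouring CpGs within 35 bp carried it, with 86 of 106 counts methylated in F1VG (81.1%) and 30 of 169 in F1GV (17.8%). On this group the V allele was at 89.2% in F1VG and 6.25% in F1GV, and the G allele at 63.6% and 30.5%. The first CpG was at 96.0% and 93.3%. Since 1 of the 3 entered the test, the difference tested was 15.4 points (95% interval 6.87 to 23.6, adjusted p = 0.0092, Fisher's exact test).

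SCAFFOLD5 from 4131918 to 4132950 (69.6% and 40.6%), SCAFFOLD17 from 1530885 to 1532099 (69.0% and 41.7%) and SCAFFOLD3 from 4544673 to 4545754 (48.8% and 22.5%) each had 4 CpGs that were all higher in F1VG, with adjusted p-values of 0.00033, 2.1e-06 and 0.00021 by the Fisher's exact test. On SCAFFOLD5 the call was lost when only CpGs with at least 20 reads in each library were used (Fisher's exact test, adjusted p = 0.14). Both alleles were higher in F1VG in all 3, by 16.1 to 35.2 points on SCAFFOLD5 and SCAFFOLD17. On SCAFFOLD3 the V allele differed by 34.7 points and the G allele by 11.5. At its last 3 CpGs the V allele was at 86.7%, 100% and 92.6% in F1VG and at 50%, 0% and 67.9% in F1GV. The G allele was at or below 9.68% there in both crosses. At its first CpG the G allele was at 95.5% and 22.6% and the V allele at 37.5% and 55.6%.

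SCAFFOLD74 from 241690 to 242213 also differed more on the V allele than on the G allele, as SCAFFOLD3 did. Its 9 CpGs were at 69.5% in F1VG and 40.5% in F1GV (29.0 points, adjusted p = 0.00047, Fisher's exact test). The first 4 CpGs were at 82.2% and 78.6%, and the last 5, within 120 bp, at 59.7% and 16.1%. On those 5 the V allele was methylated in 106 of 113 counts in F1VG and 25 of 83 in F1GV, which is 93.8% and 30.1%, and the G allele was at 17.5% and 2.42%. It is a segment where the V allele was higher in the library in which it came from the mother.

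The largest called differences toward F1VG with 10 or more CpGs were on SCAFFOLD22 from 1993090 to 1995052 (11 CpGs, 59.1% and 38.8%), SCAFFOLD35 from 171461 to 172712 (12 CpGs, 78.2% and 58.2%), SCAFFOLD61 from 859652 to 861052 (11 CpGs, 51.4% and 32.1%) and SCAFFOLD1 from 8820921 to 8822655 (10 CpGs, 81.0% and 63.0%). Adjusted p-values of the Fisher's exact test were 0.00018, 0.00037, 0.0034 and 1.0e-06, and the call on SCAFFOLD61 was lost with the spacing from the last CpG (0.57). On SCAFFOLD35 the G allele carried the larger part, with 83.7% and 57.4% against 69.1% and 62.1% on the V allele. At its CpGs 2 to 4, within 27 bp, the G allele was at 81.3% and 15.6% and the V allele at 10.9% and 25.6%. At its first CpG the G allele was at 0% and 9.09%. All 12 CpGs were higher in F1VG over both alleles. Of the stretches of this size that were not called, SCAFFOLD1 from 5629588 (12 CpGs, 24.9 points) and SCAFFOLD1 from 2222784 (16 CpGs, 21.7 points) differed by more than these 4 over all CpGs, with adjusted p-values of 0.064 and 0.84 by the Fisher's exact test. They too were named after their values were seen.

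**Figure D4:**
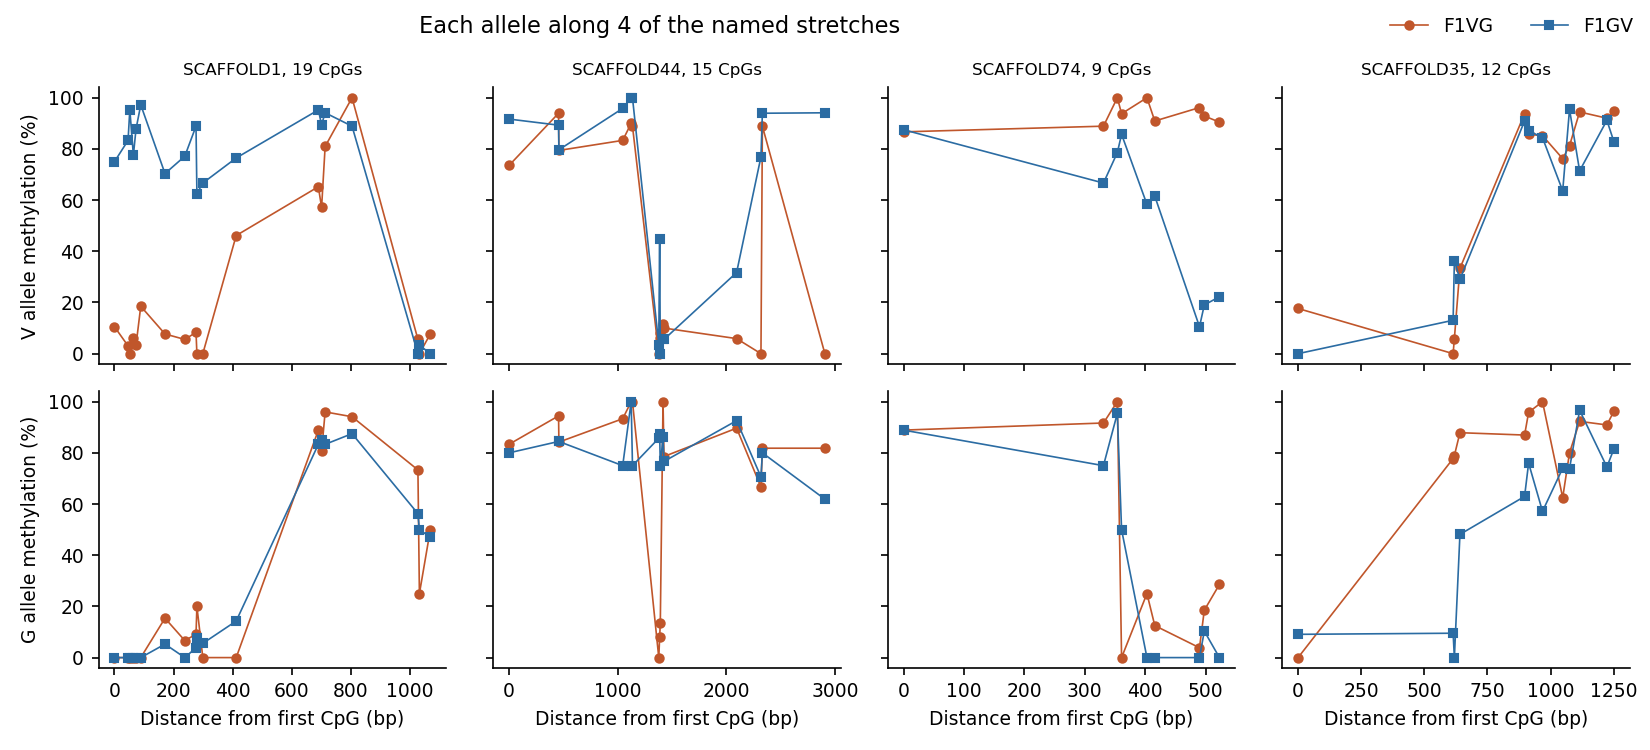
Methylation (%) of the V allele (top) and the G allele (bottom) at each CpG against its distance in bp from the first CpG, for 4 of the named stretches. Circles are F1VG and squares F1GV, 1 library each, and each point rests on the reads assigned to that allele. On SCAFFOLD1 the first 12 CpGs differ on the V allele, and on SCAFFOLD35 CpGs 2 to 4 differ on the G allele.

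The alleles contributed unequally. Of the 474 called stretches, both alleles were higher in F1VG in 233, both were higher in F1GV in 139, and they moved in opposite directions in 102. Over all 4531 stretches these counts were 1466, 890 and 2163. A call on the sum of both alleles favours alleles that move together. The V allele changed more than the G allele in 290 of the called stretches (61.2%), against 52.7% of all 4531 stretches. It did so in 139 of the 276 that were called higher in F1VG (50.4%) and in 151 of the 198 that were called higher in F1GV (76.3%). Among differences of at least 20 points, it was 10 of 13 and 26 of 27. The median change of the V allele in these 27 was -45.1 points, and that of the G allele -4.28. These shares describe called stretches and were not tested.

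A change in the share of V reads could also move a total where the alleles differ in level. That part was larger than the part from the allele levels in 4 of the 474 called stretches and in 304 of all 4531 (6.71%). Its median size in called stretches was 0.284 points, against 8.97 points for the allele levels. These parts were computed on the reads assigned to an allele.

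**Figure D5:**
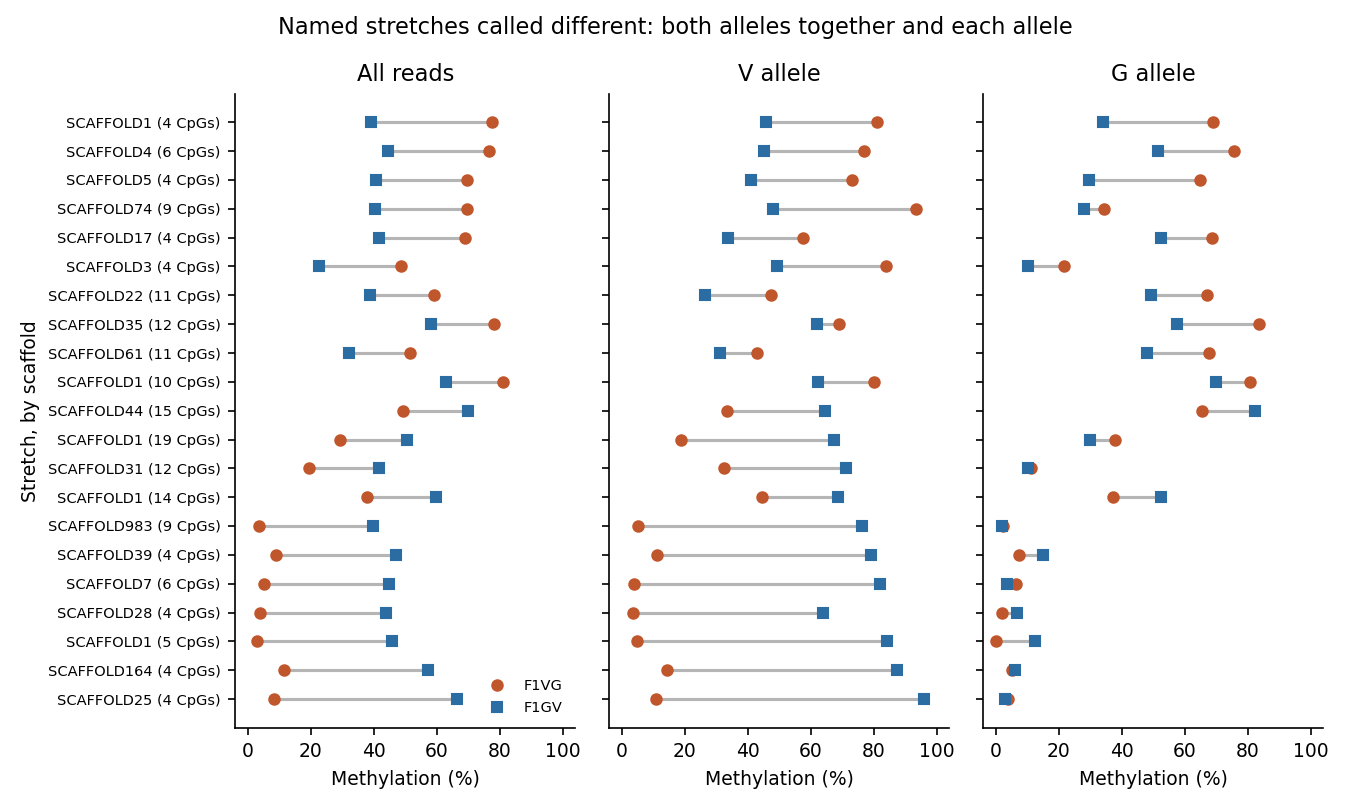
Methylation (%) of the 21 named stretches called different, over all reads (left), on V reads (middle) and on G reads (right). Circles are F1VG and squares F1GV, 1 library each, joined by a grey line, and rows are named by scaffold and number of CpGs. In the 7 lowest rows the V allele lies at or below 14.5% in F1VG and at or above 63.9% in F1GV, and the G allele at or below 14.9% in both.

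Within a stretch, the differences of single CpGs correlated most at short distances. Between CpGs of a stretch, the F1VG minus F1GV differences had a Pearson correlation of 0.333 over 57237 pairs at most a read length apart, which reads can share. The correlation was 0.088 over 68498 pairs beyond a read length and up to 300 bp apart and 0.037 over 133668 pairs from 300 to 1000 bp apart. Beyond 1000 bp it was 0.00093 over 92685 pairs. Counting error at single CpGs lowers the correlations beyond a read length and was not separated from them. When the 2336 stretches of at least 10 CpGs with room for it were divided into a first and a last part more than a read length apart, the differences of the parts correlated at 0.020 and had the same sign in 52.3%. Among the 271 of these that were called, the sign was shared in 207 (76.4%), which the call itself favours since both parts entered it.

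The largest stretches had summed levels within 4 points of each other in the crosses. SCAFFOLD4 from 5219313 to 5225623, with 78 CpGs, was at 61.3% in F1VG and 59.7% in F1GV, with 44 CpGs higher in F1VG and 33 in F1GV. SCAFFOLD123 from 2041 to 11055, the longest with 9014 bp and 76 CpGs, was at 36.1% and 38.9%. Its V allele was at 65.3% and 71.8% and its G allele at 4.72% and 4.58%, so that its intermediate total came from 1 methylated and 1 unmethylated allele in both crosses. SCAFFOLD10 from 252673 to 257863 (54 CpGs) was at 74.98% and 73.7%, and SCAFFOLD141 from 317235 to 324053 (36 CpGs, 6818 bp) at 75.1% and 71.5%. Near-equal sums did not mean that every CpG was alike. The last 3 CpGs of the SCAFFOLD4 stretch, within 116 bp, had 164 of 236 methylated counts in F1VG (69.5%) and 102 of 326 in F1GV (31.3%), with the V allele at 73.3% and 4.86% and the G allele at 65.0% and 66.0%. On SCAFFOLD10, 4 CpGs within 297 bp were at 52.8% and 19.8%, with the V allele at 78.6% and 5.81% and the G allele at 49.2% and 28.2%. These segments were chosen after seeing the data. None of the 4 stretches was called, with adjusted p-values of 0.997, 0.943, 0.784 and 0.117 by the Fisher's exact test. The first was called, with a difference of 3.32 points and an adjusted p of 0.017 (Fisher's exact test), when CpGs above 2 times the median depth were left out. With all counts summed, SCAFFOLD123 and SCAFFOLD141 were called too, with adjusted p-values of 0.021 and 0.040 (Fisher's exact test). The 95% intervals of the difference over all spaced CpGs lay between -2.89 and 8.06 points.

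The share of stretches called varied with the gap between the allele levels, with no steady rise. The gap comes from reads that also enter the difference, so the classes are not independent of the calls. Where the V and G levels, averaged over the libraries, differed by less than 10 points, 270 of 2865 stretches were called (9.42%), and by 40 to 60 points 34 of 160 (21.3%). By 60 points or more it was 9 of 146 (6.16%). Of the 40 large differences, 4 lay in the first class, 18 between 20 and 40 points, 7 between 40 and 60 points and 3 in the last.

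Called stretches were spread over the genome. They lay on 103 of the 315 scaffolds with a stretch, and on the 29 scaffolds with at least 50 stretches the share called ran from 4.35% to 22.6% with a median of 10.8%. The mean difference was above 0 on 27 of the 29, from -1.01 points on SCAFFOLD31 to 2.55 on SCAFFOLD10. The differences of neighbouring stretches, with a median gap of 5752 bp, were hardly correlated. The differences of neighbours 1000 to 3000 bp apart correlated at 0.0099 over 1458 pairs, and both were called in 21 pairs, in the same direction in 9. SCAFFOLD1, with the most stretches, had 36 called of 313 and 6 of the 40 large differences.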

How the data were processed

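Per the labels, whole-genome bisulfite libraries came from 2 reciprocal crosses, 1 library each. The authors trimmed and filtered the single-end reads and used BWA to place them on the bisulfite-converted v1.0 genomes of both species. Reads with a unique place were kept and assigned to an allele where they covered a difference between the species, and CpGs needed at least 8 reads per allele. The submitters' processing notes also name CASAVA 1.8.2, FastQC and Trimmomatic. The deposited values are raw counts of converted and unconverted reads per CpG, over all reads, V reads and G reads. Whether positions count from 1, and whether strands were summed, is not given in the sources used here.

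Levels are methylated counts over all counts. Pooling reads gives the deeper F1GV library more weight in the choice of CpGs. Stretches, summed levels, two-sided Fisher's exact tests on CpGs more than a read length apart (from the first CpG), Benjamini-Hochberg adjustment and 95% intervals (Wilson for a level, Newcombe for a difference) were computed with Python 3.11.15, NumPy 2.4.6, pandas 2.3.3, SciPy 1.17.1 and Numba 0.67.0. Figures were drawn with Matplotlib 3.10.9. The code was tested on simulated data. Median depth per CpG was 47 in F1VG and 55 in F1GV. Named stretches were the 6 called stretches with the largest difference in each direction, the 4 with at least 10 CpGs in each direction, and the 3 with the most CpGs and the 3 longest. Stretches and rules were chosen with earlier results of these data known, and 2 stretches near 0 in F1VG, the SCAFFOLD57 stretch, 3 large differences that were not called and all segments were named after their values were seen. Alternatives changed the choice of CpGs, the gap, the run, the test and the reads. Gene annotation of the v1.0 build, parental methylomes and RNA-seq were not used here, so stretches are not placed in genes.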

Additional observations from a re-analysis of the deposited data

How the results depend on the processing

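No paired analysis was possible because each cross had 1 library, and for the same reason no library could be left out. The 474 called stretches became 247 with CpGs chosen at a pooled level of 50%, 995 with all counts summed, 253 at an adjusted p under 0.01, 227 when called from both ends and 56 when every CpG had to share the direction. The 40 differences of at least 20 points became 2 at a pooled level of 50%, 24 with CpGs chosen in F1VG alone, 88 with neighbours at most 200 bp apart, 21 with neighbours at most 2000 bp apart and 11 in runs of at least 8 CpGs. The mean difference of 0.829 points turned to -0.45 with CpGs chosen in F1GV alone. It moved by more than its counting error of 0.12 points to 2.60 in F1VG alone, 1.04 by the unweighted mean of levels, 0.590 at a pooled level of 10%, 1.53 at 50% and 0.703 with neighbours at most 2000 bp apart. The stretches below 10% in F1VG and at least 30% in F1GV went from 7 to 13 at a pooled level of 10%, 15 in F1GV alone and 0 in F1VG alone, and the reverse from 0 to 3, 0 and 2. By the unweighted mean of levels these counts were 6 and 0, and on V and G reads alone 7 and 0. The last counts, the calls from both ends and those with every CpG in 1 direction were chosen after seeing the data. The share of calls that were higher in F1VG was 58.2%, and 85.8% and 37.4% with CpGs chosen in F1VG or F1GV alone, 73.3% at a pooled level of 50% and 52.8% with neighbours at most 200 bp apart. A stratified test over CpGs (Cochran-Mantel-Haenszel) called 662. The named stretches were followed as fixed stretches, so the alternative choices of CpGs by level, gaps and runs were not applied to them. Where only the test, its spacing or its threshold changed, the difference was the same number and could not turn direction. The unweighted mean over the CpGs of a stretch kept the same p-values, so it could not change a call. For the 26 named stretches, 225 comparisons kept the direction and the side of the threshold. This count includes the settings above whose direction or call was fixed in advance. Of the others, 4 lost a call, 5 gained one and 0 turned direction. The cause of these changes was not tested. Short stretches are limited by depth, and a CpG spacing that keeps reads apart leaves 1 to 3 CpGs in many of them.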
